A study of Mus musculus with 2 samples.

Results

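Class I phosphoinositide 3-kinase (PI3K) and mTOR signalling comprised 42 genes of the 21887 protein-coding genes considered, and their accessible regions were described in mouse CD8+ T cells profiled by ATAC-seq, which reads out open chromatin as sites that a transposase can cut and tag. The member genes were taken from a list by symbol, and their peaks were those touching the gene span with 10 kb added on each side, here called the locus, each peak counted once. This gave 349 of 64910 peaks in the treatment library and 441 of 85137 in the control library. The study deposited 1 library per group. The treatment library is so named by its title, and its treatment field reads "Combined treatment". The control library is so named by its title, while its treatment field reads "Treatment", so these label fields do not name the groups alike. Both libraries are of CD8+ T cells, named Peml-1 in the title of the series. The agents given, the strain, the age and the number of animals are not given in the sources used here. Replicates are lacking, so the groups cannot be tested against each other, and every value compares these libraries and not the conditions.

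In T cells, class I PI3K is recruited by the antigen receptor, costimulatory receptors and cytokine receptors and makes a phosphoinositide messenger at the plasma membrane that brings Pdpk1 and the Akt kinases together. Akt inactivates the Tsc1 and Tsc2 complex, which lets the small GTPase Rheb switch on mTORC1, the kinase complex that raises protein synthesis when amino acids are at hand. Inositol phosphatases, Pik3ip1, the sestrins, Ddit4 and the AMPK kinase act against this route, and quiescent T cells are known to keep it low.

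Of the 42 genes, 21 were classed as activators, 19 as inhibitors, and the Akt substrates Gsk3a and Gsk3b as neither. Every gene matched the annotation and had at least 2 locus peaks in each library. Both classes had fewer peaks in treatment. Activator loci held 149 peaks in treatment and 201 in control, a ratio of 0.741 (95% exact binomial interval 0.596 to 0.921). Inhibitor loci held 188 and 227, a ratio of 0.828 (0.679 to 1.01). The loci of all protein-coding genes together had a ratio of 0.776, which lies inside both intervals. These intervals cover counting error only and take the peaks of the libraries as independent, though most treatment peaks were shared with control. They do not measure the error of a paired count, so the place of 0.776 inside them is descriptive only. In a bulk sample fewer cells with an open region and less access per cell cannot be told apart.

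The starts of the genes stayed open in both libraries. Of the 42 genes, 37 had an annotated start in the promoter table, a window from 250 bases before to 50 bases after the start, and all 37 had a peak there in both libraries. The same was found for 58.4% of the 17492 genes with such a window. Starts of Pik3r6, Slc7a5, Slc1a5, Deptor and Eif4ebp1 were not analysed here. The bases before the start are shown for Pik3ip1 and Inpp4b, inhibitors whose loci held peaks absent from control, and for Pik3cg and Slc3a2, activators whose loci held peaks absent from treatment. They are RefSeq sequences of GRCm38.p6, the assembly of mm10, written 5′ to 3′ along the gene. They lie at chr11:3330481-3330730 on the plus strand (Pik3ip1), chr8:81342312-81342561 on the plus strand (Inpp4b), chr12:32208471-32208720 on the minus strand (Pik3cg) and chr19:8713898-8714147 on the minus strand (Slc3a2). Capitals mark the motifs found among 7 searched.
Pik3ip1: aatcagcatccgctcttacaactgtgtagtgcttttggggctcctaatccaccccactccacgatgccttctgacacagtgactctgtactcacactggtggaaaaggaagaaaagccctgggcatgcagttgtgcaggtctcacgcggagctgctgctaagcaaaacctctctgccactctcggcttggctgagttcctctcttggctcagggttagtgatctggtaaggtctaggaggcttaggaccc
Inpp4b: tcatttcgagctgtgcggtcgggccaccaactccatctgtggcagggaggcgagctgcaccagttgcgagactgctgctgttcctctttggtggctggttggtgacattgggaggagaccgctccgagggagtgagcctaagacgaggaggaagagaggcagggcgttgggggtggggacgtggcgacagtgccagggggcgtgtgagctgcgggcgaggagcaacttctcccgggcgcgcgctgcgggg
Pik3cg: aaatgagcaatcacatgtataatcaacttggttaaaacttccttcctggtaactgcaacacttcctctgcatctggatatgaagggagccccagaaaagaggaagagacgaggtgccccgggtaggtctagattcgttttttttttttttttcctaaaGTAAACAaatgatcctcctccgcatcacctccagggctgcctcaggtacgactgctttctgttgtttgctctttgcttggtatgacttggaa
Slc3a2: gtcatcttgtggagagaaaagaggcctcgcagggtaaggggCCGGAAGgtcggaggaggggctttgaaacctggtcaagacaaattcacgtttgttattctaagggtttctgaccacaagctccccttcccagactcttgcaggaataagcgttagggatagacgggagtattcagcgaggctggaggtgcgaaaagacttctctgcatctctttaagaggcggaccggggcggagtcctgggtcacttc
The G and C content of these stretches was 53.6% for Pik3ip1, 66.0% for Inpp4b, 44.0% for Pik3cg and 53.6% for Slc3a2. The forkhead letters TGTTTAC were found on the reverse strand of the Pik3cg stretch, and the ETS letters CCGGAAG in the Slc3a2 stretch, while the Pik3ip1 and Inpp4b stretches held none of the 7. On both strands of the whole windows, TGTTTAC was present at 4 of 37 member genes (10.8%) and 3.45% of all genes, and CCGGAAG at 6 (16.2%) and 12.9%. The E-box CACGTG was present at 2 of 37 and 8.91% of all genes, TGATGNAA (ATF4 with C/EBP) at 2 and 4.13%, TGANTCA (AP-1) at 2 and 8.12%, the NRF1 motif at 2 and 7.17%, and TGTGGTT (RUNX) at 0 and 5.55%. These are letter matches in a window and say nothing of a bound factor.

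Strength at a peak was read in 2 ways. Fold enrichment over local background is the authors' own value and is compared within a list. Summit coverage is the number of reads at the summit, recovered from the fold enrichment and the p-value of each peak, and the libraries had nearly the same lowest background per base of their narrowest peak, 0.0809 reads in treatment and 0.0804 in control. At the 4 starts shown, Pik3ip1 had 1105 reads at the summit in treatment and 1066 in control. Inpp4b had 746 in treatment and 956 in control. Pik3cg had 514 and 753, and Slc3a2 had 1194 and 1413. The Slc3a2 start shown lies inside the gene span. A shared peak at the 5′ end of that span went the other way, with 1406 reads in treatment and 1338 in control.

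Over all 41 start peaks of the member genes the summit coverage, not corrected for background, had a median ratio of treatment to control of 0.968 (95% order-statistic interval 0.892 to 1.03). The lowest ratio was 0.627, at Tsc2, and the highest 1.25, at Rictor. Of these 41 peaks, 19 had more reads in treatment. Over all loci a smaller share did, 1869 of 9898 shared gene-start peaks (18.9%). The median ratio there was 0.855, below the interval of the members. Start peaks over all loci were weaker, with medians of 954 reads in treatment and 1097 in control. Those of the members had medians of 1522 and 1500. The comparison was not matched for strength, so it does not show that member starts differ from other starts. The members' other shared peaks, 278 in number, had a median ratio of 0.758 (0.704 to 0.797), and 0.685 was found over all loci. The difference between start peaks and the rest was therefore also seen over all genes.

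**Figure D1:**
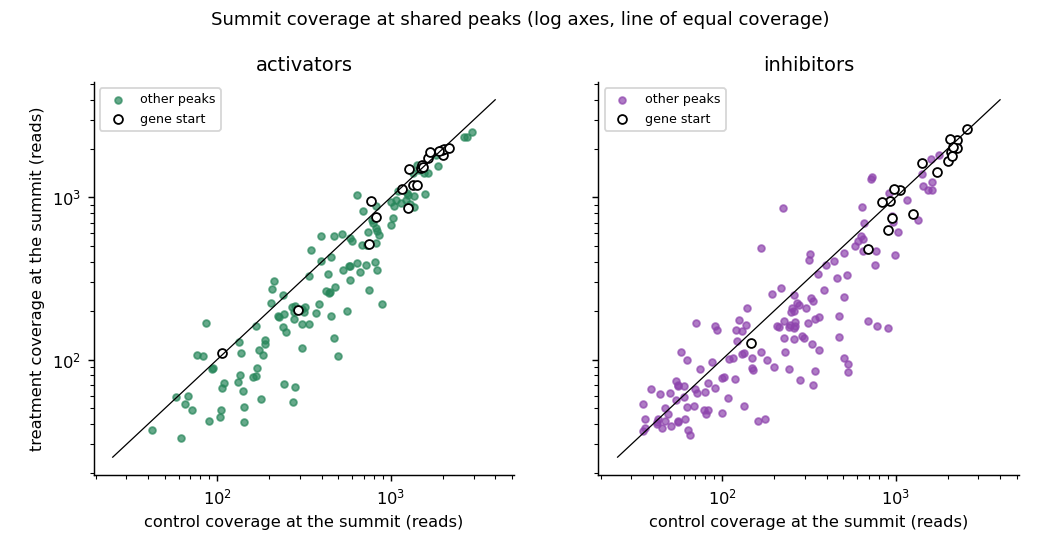
Reads at the summit of each shared peak in treatment (vertical axis) against control (horizontal axis), log axes, for activators (left) and inhibitors (right); open circles are peaks at gene starts and the line marks equal coverage. Start peaks lie along the line, with median ratios of 0.992 for the 20 of activators and 0.910 for the 19 of inhibitors. Most other peaks lie below it, with median ratios of 0.710 and 0.777. Coverages are not corrected for background. Gsk3a and Gsk3b are not drawn.

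Single-library peaks were found in both classes, with overlapping intervals of their shares as reported but not in every setting. Overlap of 1 bp or more with any peak of the other list made a peak shared. Of the treatment peaks at activator loci 6 of 149 were found in treatment only (4.03%, Wilson interval 1.86 to 8.51%), and at inhibitor loci 21 of 188 (11.2%, 7.42 to 16.5%). Over all loci this share was 6.28%. Without Inpp4b, which held 11 of the 21, the inhibitor share was 8.70% (4.79 to 15.3%). The treatment-only share depended on the definition. It was 9.40% (5.68 to 15.2%) for activators and 18.6% (13.7 to 24.8%) for inhibitors with 50% reciprocal overlap. With summits within 200 bp it was 9.40% (5.68 to 15.2%) and 20.7% (15.6 to 27.1%). With lists of equal length it was 12.8% (8.32 to 19.1%) and 35.6% (29.1 to 42.7%), or 21.7% (15.2 to 30.1%) for inhibitors without Inpp4b. The class intervals did not overlap with summits within 200 bp and, unless Inpp4b was left out, with lists of equal length. Of the control peaks, 58 of 201 at activator loci (28.9%, 23.03 to 35.5%) and 62 of 227 at inhibitor loci (27.3%, 21.9 to 33.5%) were found in control only, beside 27.5% over all loci. Of the 42 loci 13 had a treatment-only peak and 35 a control-only peak. Among the 17468 genes with a locus peak 2761 (15.8%) and 10655 (61.0%) did. These all-gene shares are not matched for peak number, on which having such a peak depends, so they do not show an excess at the members.

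Most single-library peaks were weak in both classes. Treatment-only peaks at the 42 loci had summit coverages of 35 to 505 reads, with a median of 63.5, and 22 of 28 had fewer than 100. Control-only peaks had 32 to 701 reads, with a median of 83.0, and 78 of 122 had fewer than 100. Each list was also split into quartiles of its own fold enrichment. In the lowest quartile of treatment peaks, 5 of 41 activator peaks (12.2%) and 17 of 75 inhibitor peaks (22.7%) were treatment-only, beside 21.3% over all loci. In the lowest quartile of control peaks, 41 of 65 activator peaks (63.1%) and 44 of 95 inhibitor peaks (46.3%) were control-only, beside 60.7% over all loci. None of the 64 treatment peaks in the highest quartile was single-library, and 3 of 80 such control peaks were.

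Peaks of activators and inhibitors had overlapping intervals of median width, while the order of their fold enrichments in control depended on Inpp4b. In treatment the median width was 547 bp (463 to 661) for activators and 491 bp (441 to 546) for inhibitors, and in control 510 bp (463 to 557) and 476 bp (424 to 511). The median fold enrichment in treatment was 6.92 (5.45 to 8.04) for activators and 5.21 (4.55 to 6.16) for inhibitors, and in control 6.55 (5.95 to 7.51) and 5.81 (5.01 to 6.93). Without Inpp4b the control median of the inhibitors was 7.41, above that of the activators, and the treatment median was 5.70, below it. Median summit coverage was 310.0 reads (213 to 403) for activators and 137 (109 to 164) for inhibitors in treatment. In control it was 280.0 (207 to 394) and 162 (122 to 228). Without Inpp4b the inhibitor medians were 161 (126 to 209) in treatment and 247.5 (200 to 304) in control. The class intervals of coverage did not overlap in treatment, with or without Inpp4b, and overlapped in control. Over all loci the treatment medians were 558 bp, a fold of 7.51 and 208 reads. The control medians there were 540 bp, 8.20 and 239 reads.

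Gene by gene, 29 of the 42 loci had fewer peaks in treatment, 11 as many and 2 more. Among the 17468 genes with any locus peak, 56.0% had fewer in treatment, 36.9% as many and 7.08% more. Among the 12288 genes whose summed peak number lay in the range of the 42, from 5 to 162, 64.4% had fewer and 8.34% more. Of the activators 16 had fewer, 5 as many and 0 more. Of the inhibitors 12 had fewer, 5 as many and 2 more, Pik3ip1 and Prkaa1. The median log2 ratio of treatment to control peak numbers, with a pseudocount of 0.5, was −0.53 for activators and −0.28 for inhibitors, and −0.29 for the genes with peak numbers in the same range.

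**Figure D2:**
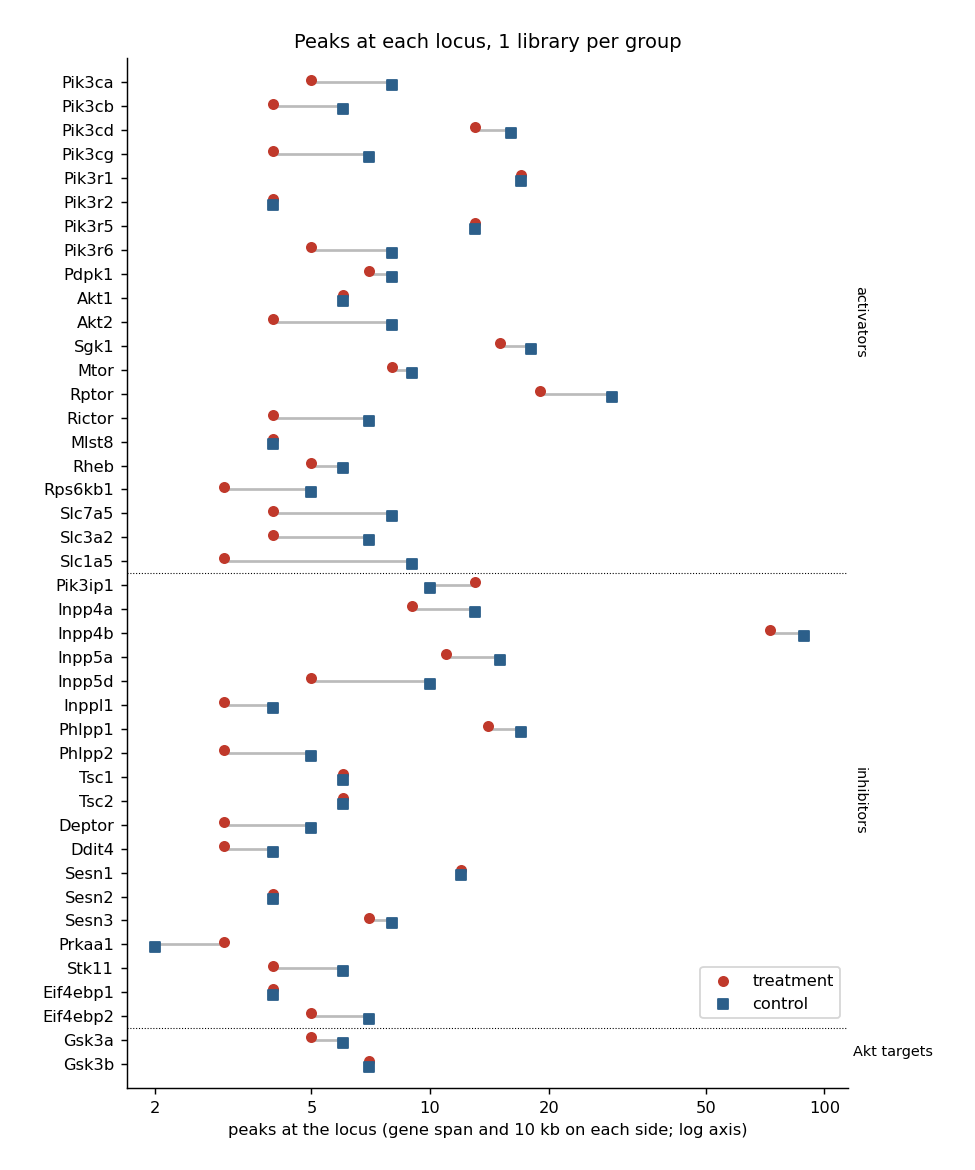
Peaks at each of the 42 loci in treatment (red circles) and control (blue squares), ordered by role, on a log axis; dotted lines part activators, inhibitors and the Akt targets. Treatment lies left of control at 29 loci, on it at 11 and right of it at Pik3ip1 and Prkaa1.

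The picture differed when the control list was reduced to the length of the treatment list by highest −log10 p-value. Of the activators 9 had fewer peaks in treatment, 8 as many and 4 more (Pik3r1, Pik3r5, Rptor and Rheb). Of the inhibitors 7 had fewer, 2 as many and 10 more. Over all genes the same setting gave 25.6% with fewer and 25.5% with more. The ratio of treatment to control peaks was then 0.974 at activator loci and 1.33 at inhibitor loci, or 1.08 without Inpp4b. With both lists limited to −log10 q-values of 10 and above, no activator had more peaks in treatment, and Pik3ip1 was the 1 inhibitor that did. Over all genes with a locus peak that limit gave 56.7% with fewer and 4.35% with more.

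**Figure D3:**
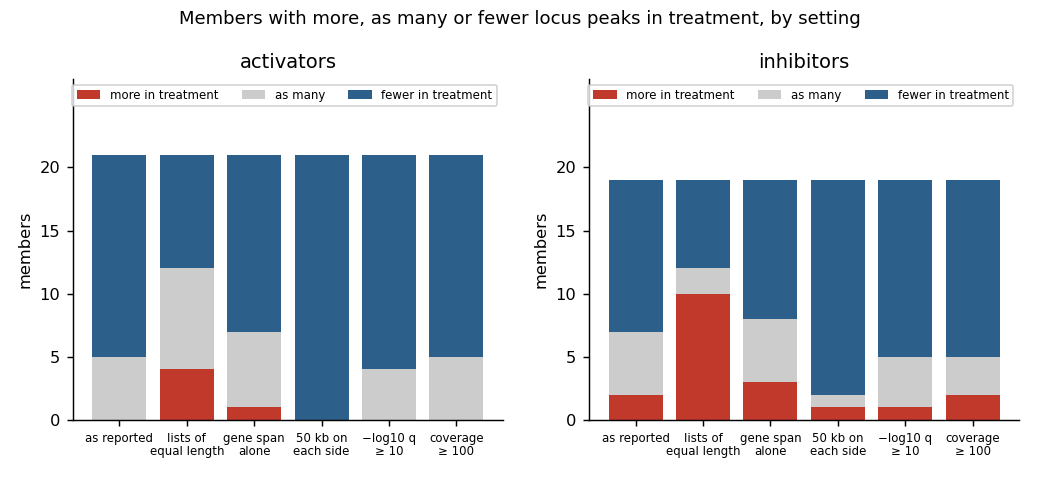
Number of activators (left) and inhibitors (right) with more, as many or fewer locus peaks in treatment than in control, for the values as reported and 5 other settings. With lists of equal length 10 of 19 inhibitors and 4 of 21 activators had more peaks in treatment; in each of the other settings most members had fewer.

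The catalytic subunits of class I PI3K each had fewer peaks in treatment, except that Pik3cg had 4 in each library with lists of equal length or for peaks of 100 reads and above. Pik3ca, the ubiquitous alpha catalytic subunit, had 5 peaks in treatment and 8 in control. Pik3cb, the beta subunit, had 4 and 6. Pik3cd, the delta subunit that carries most class IA activity of lymphocytes, had 13 and 16. Pik3cg, the class IB subunit activated by G protein-coupled receptors such as chemokine receptors, had 4 and 7. Together these 4 loci held 26 peaks in treatment, none absent from control (0 of 26 allows a share of up to 11.5%, and 6.28% was found over all loci). They held 37 in control, of which 10 (27.03%) were absent from treatment, beside 27.5% over all loci. The control-only peaks of Pik3cg had 45 to 93 reads and those of Pik3cd 101 to 504. At the Pik3ca start the summit held 1746 reads in treatment and 1645 in control, while a shared peak inside the span, 23040 bp from the start in treatment, held 200 reads, against 560 in control.

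Of the 4 regulatory subunits, 3 had as many peaks in both libraries and Pik3r6 had fewer in treatment. Among all genes with a locus peak 36.9% had as many and 56.0% fewer. Pik3r1, which encodes the main class IA adaptor that stabilises the catalytic subunit, had 17 peaks in each library, 2 of them single-library in each. Pik3r2, its relative, had 4 in each, all shared. Pik3r5, an adaptor of the class IB enzyme, had 13 in each, all shared. Pik3r6, the other class IB adaptor and its neighbour on chromosome 11, had 5 peaks in treatment and 8 in control. Of these, 2 in each library also lay in the Pik3r5 locus. None of the 5 shared peaks of Pik3r6 had more reads in treatment, and over all loci 15.7% of shared peaks did. Their ratios to control were 0.212 to 0.527, with a median of 0.288, and the median over all loci was 0.722. Its strongest control peak had 496 reads and the treatment peak over it 105.

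Downstream of the messenger, Pdpk1, the kinase that phosphorylates the activation loop of Akt, had 7 peaks in treatment and 8 in control. Akt1 had 6 and 6, and Akt2, the isoform best known for glucose metabolism, had 4 and 8. The Akt2 peaks absent from treatment had 50 to 701 reads, and the one with 701 reads had a fold enrichment of 4.35 on a high local background. Sgk1, a kinase related to Akt and activated through mTORC2, had 15 and 18. In the mTOR complexes, Mtor, the kinase itself, had 8 and 9 peaks, and Mlst8, a subunit of both complexes, had 4 and 4. Rictor, the defining subunit of mTORC2, had 4 and 7. Its start had 954 reads in treatment and 766 in control, the highest ratio among the start peaks.

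Rptor, the defining subunit of mTORC1, held the most peaks among the activators. Its span of 297 kb on chromosome 11 (119602905 to 119899591) and flanks had 19 peaks in treatment and 29 in control. Of the control peaks 12 were absent from treatment, with 35 to 265 reads, and 2 of the treatment peaks were absent from control, with 46 and 59 reads. The control-only peak with 265 reads lay at chr11:119775198-119775779, inside the span and 172636 bp from the start, with a fold enrichment of 14.6. The nearest treatment peak was 11583 bp away. At the Rptor start the coverage was 762 in treatment and 822 in control. Rheb, the GTPase that switches on mTORC1, had 5 and 6 peaks, and Rps6kb1, the S6 kinase it acts through, had 3 and 5.

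The amino acid transporters had the lowest ratio of peak numbers among the 15 role groups. Slc7a5, the large neutral amino acid transporter that T cells raise on activation, had 4 peaks in treatment and 8 in control. Slc3a2, the heavy chain that carries Slc7a5 to the membrane, had 4 and 7. Slc1a5, a glutamine transporter, had 3 and 9. Of the 24 control peaks at these loci 13 were absent from treatment (54.2%, Wilson interval 35.1 to 72.1%), beside 27.5% over all loci. The group was picked out by its low ratio, and the 54.2% rests on the same counts, so it is no further support. Of the 24 control peaks 15 (62.5%) lay in the lowest quartile of fold enrichment, where 60.7% were control-only over all loci. None of the 11 treatment peaks was absent from control, which allows a share of up to 27.3%. The ratio of 0.458 had a wide interval, 0.203 to 0.972, which includes the 0.776 of all loci but ignores the sharing of peaks between the libraries.

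The transporter peaks found in control only were mostly low. At Slc7a5 (chromosome 8, 121881146 to 121907686) they had 80 to 138 reads, and the locus peak with most reads was equal in the libraries, 1827 in treatment and 1824 in control. At Slc3a2 (chromosome 19, 8706882 to 8723369) they had 51, 85 and 155 reads, all in the flanks. At Slc1a5 (chromosome 7, 16781334 to 16798274) the 6 had 39 to 364 reads. With lists of equal length Slc7a5 had 4 and 4 peaks, Slc3a2 4 and 4, and Slc1a5 3 and 5, a setting that by its construction removes the weakest control peaks alone. With the same limit on both lists fewer peaks in treatment were found at all 3 loci. For −log10 q-values of 10 and above Slc7a5 had 2 and 7, Slc3a2 4 and 6, and Slc1a5 3 and 6, and for peaks of 100 reads and above they had 2 and 4, 4 and 5, and 2 and 5. Over all genes with a locus peak 56.7% and 55.4% had fewer at these limits. A shared peak inside Slc7a5 had 219 reads in treatment and 885 in control.

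**Figure D4:**
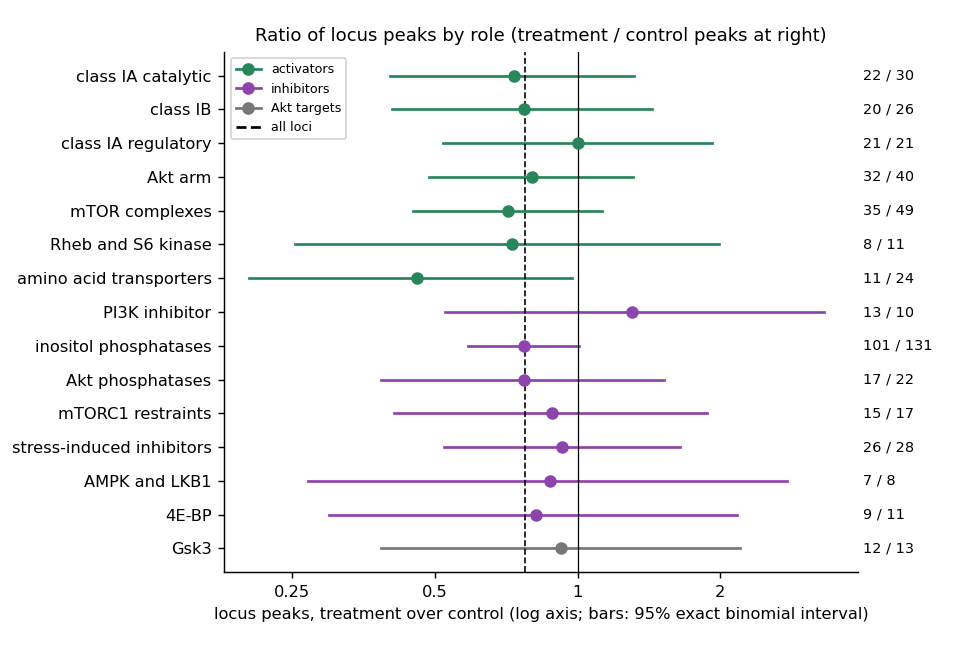
Ratio of locus peaks in treatment to control for the 15 role groups, on a log axis, with 95% exact binomial intervals and the 2 peak numbers at the right; the dashed line is the ratio of all loci, 0.776. The amino acid transporters lie lowest, at 0.458, and Pik3ip1 highest, at 1.30, and the interval of each of the 15 includes the dashed line. The intervals ignore the sharing of peaks between the libraries.

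Among the inhibitors, Pik3ip1 went against the general deficit. It encodes a transmembrane protein that binds the PI3K catalytic subunit, restrains it, and is expressed in resting T cells. Its span on chromosome 11 (3319241 to 3342971) and flanks had 13 peaks in treatment and 10 in control. It had no peak absent from treatment, and 3 treatment peaks were absent from control. Relative to the start, these had 68 reads at −19713 bp, 505 reads at −1321 bp and 459 reads at 6097 bp. The peaks with 505 and 459 reads had fold enrichments of 2.05 and 1.55, on a high local background beside stronger peaks. Of the 10 shared peaks, 5 had more reads in treatment (15.7% over all loci). The one with the highest ratio lay outside Pik3ip1, in its downstream flank inside the span of Limk2, at chr11:3344613-3345412. It had 1307 reads in treatment and 724 in control. Peak numbers in treatment and control were 13 and 10 with lists of equal length, 6 and 4 in the gene span alone, 22 and 18 with 50 kb on each side, 12 and 10 for −log10 q-values of 10 and above, and 11 and 10 for peaks of 100 reads and above (chosen after seeing the data).

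**Figure D5:**
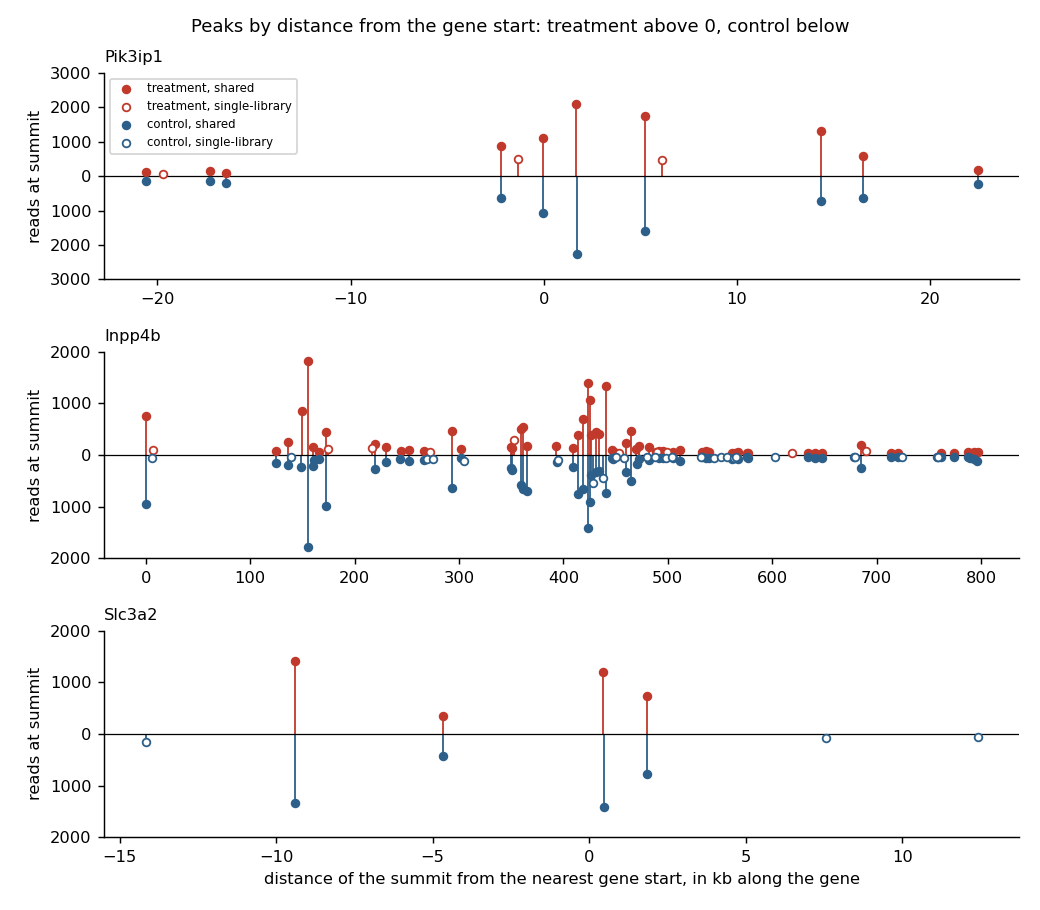
Reads at the summit of each peak of Pik3ip1, Inpp4b and Slc3a2 by distance from the nearest annotated gene start in kb, with treatment above and control below 0; open circles are peaks found in 1 library only. Pik3ip1 has 3 open circles in treatment and none in control, Slc3a2 has none in treatment and 3 in control, and most of those of Inpp4b are low.

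The inositol phosphatases turn the PI3K messenger or its products over. Inpp4b, a 4-phosphatase that opposes Akt signalling, was by far the most peak-rich locus of the 42, with 73 peaks in treatment and 89 in control over a span of 792 kb on chromosome 8 (81342266 to 82134312). Treatment-only peaks numbered 11 and control-only peaks 27, and 36 of the 73 and 52 of the 89 had fewer than 100 reads. At its 62 shared peaks the median ratio of coverage was 0.928, and 25 had more reads in treatment (15.7% over all loci). An element 149404 bp after the start, at chr8:81491135-81492494 in treatment, held 855 reads, against 223 in control, the highest ratio of any shared peak at the 42 loci, 3.83. Another, 440435 bp after the start, held 1345 reads in treatment and 727 in control. The strongest Inpp4b peak was nearly equal, with 1817 and 1788 reads. The treatment-only peak with most reads, 283, lay at chr8:81694781-81695363, 1250 bp from the nearest control peak. With lists of equal length Inpp4b held 73 peaks in treatment and 35 in control. At a coverage of at least 100 reads it held 37 and 37, and for −log10 q-values of 10 and above 51 and 60.

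The other inositol phosphatases each had fewer peaks in treatment as reported, as did 56.0% of all genes with a locus peak, but not in every setting. Inpp5d, which encodes SHIP1, the blood cell phosphatase that removes a phosphate from the PI3K messenger, had 5 peaks in treatment and 10 in control. None of its 5 shared peaks had more reads in treatment (15.7% over all loci), and their median ratio of 0.705 was near the 0.722 of all loci. Its peaks absent from treatment had 57 to 237 reads, and the one with 237 lay at chr1:87709831-87710633 inside the span. Inpp4a had 9 and 13, Inpp5a, which acts on soluble inositol phosphates, 11 and 15, and Inppl1 (SHIP2) 3 and 4. Inppl1 had more peaks in treatment in the gene span alone (2 and 1). It also had more with lists of equal length and for peaks of 100 reads and above (3 and 2 in each). With lists of equal length Inpp5a had 11 and 10. A shared Inpp4a peak at chr1:37327174-37327903 in control had 156 reads in treatment and 899 in control. Phlpp1 and Phlpp2, phosphatases that dephosphorylate Akt, had 14 and 3 peaks in treatment and 17 and 5 in control.

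Among the restraints of mTORC1, Tsc1 and Tsc2, the complex that holds Rheb inactive, had 6 peaks each in treatment and 6 each in control. For −log10 q-values of 10 and above Tsc1 had 3 and 6 and Tsc2 4 and 6, and for peaks of 100 reads and above 2 and 5, and 3 and 5. None of the 5 shared peaks of Tsc2 had more reads in treatment (15.7% over all loci), and their ratios were 0.176 to 0.627. The Tsc2 start held 790 reads in treatment and 1259 in control. That start peak also covers the start of Nthl1. The Tsc1 start held 1133 and 974. Deptor, a protein that binds and inhibits mTOR, had 3 and 5 peaks, and its control-only peak at chr15:55217792-55218282, with 250 reads and a fold enrichment of 16.6, was the strongest by fold enrichment of the 122 found in control only at the 42 loci.

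The stress-induced inhibitors had 26 peaks in treatment and 28 in control. Ddit4 (REDD1), which acts through the Tsc complex, had 3 and 4. Of the sestrins, which hold back mTORC1 when leucine is short, Sesn1 had 12 and 12, Sesn2 4 and 4, and Sesn3 7 and 8. A Sesn1 element at −6492 bp from the nearest start held 487 reads in treatment and 167 in control, while the 2 start peaks held 1902 and 1688 in treatment and 2089 and 2016 in control. The start peak with 1902 and 2089 reads also covers the start of Cep57l1. Of the 4 shared Sesn2 peaks 0 had more reads in treatment (15.7% over all loci), and for peaks of 100 reads and above Sesn2 had 2 and 4. Its start held 1802 reads in treatment and 2103 in control, and a peak 19583 bp after the start held 84 and 531, the lowest ratio of the shared peaks at the 42 loci, 0.158.

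Prkaa1, the catalytic subunit of AMPK, had 3 peaks in treatment and 2 in control, the extra one with 41 reads. For −log10 q-values of 10 and above it had 2 and 2. Stk11 (LKB1), the kinase that activates AMPK, had 4 and 6. Eif4ebp1 and Eif4ebp2, translation repressors that mTORC1 inactivates, had 4 and 5 in treatment and 4 and 7 in control. Of the Akt substrates outside the classes, Gsk3a had 5 and 6 peaks and Gsk3b 7 and 7. The Gsk3b start had the most reads of the 41 start peaks, 3272 in treatment and 3390 in control.

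Other genes of the pathway were read from a second list of 62 genes, all matched, among them class II PI3K genes, Ragulator and GATOR subunits, AMPK subunits and phosphoinositide kinases. Fewer peaks in treatment were found at 34 of them (54.8%), more at 10 (16.1%) and equal numbers at 18. Among all genes with a locus peak 56.0% had fewer and 7.08% more. The loci of the 62 held 371 peaks in treatment and 426 in control, a ratio of 0.871, beside 0.776 over all loci. Control-only peaks made up 21.4% of their control peaks, beside 27.5% over all loci. Treatment-only peaks made up 8.09% of their treatment peaks, beside 6.28%.

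As a check of the labelled cell type, loci of 5 T cell genes held 49 peaks in treatment and 51 in control, and those of Cd8a and Cd8b1 18 and 18. Of B cell genes, Cd79a had 6 and 6, Pax5 10 and 11, and Ms4a1 1 and 0. The loci of 4 myeloid genes held 12 and 13, 2 NK cell genes 2 and 6, and 3 melanocyte genes 2 and 6. Ncr1 and Tyr had none in either library, Klrb1c had none inside its span, and Cd4 had 5 and 5. The part of other cells in the results was not tested. Some member loci hold other genes: 14 treatment peaks and 16 control peaks covered the start of another gene and not of the member, and 276 of 349 treatment peaks and 343 of 441 control peaks touched the member's own span.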

How the data were processed

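ATAC-seq peak lists of 2 libraries, 1 per group, were used. Groups were taken from the titles. Per the submitters' processing notes, reads were handled with MACS2, Picard 2.20, Bowtie2 2.3 and cutadapt 2.5, listed without order, and the build was mm10. The sources used here give no settings or read numbers. The authors called peaks per library and deposited, for each peak, a score, the fold enrichment at its summit as a ratio, its −log10 p-value and its −log10 q-value. Both deposited lists start at a −log10 q-value of 2.00.

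Only chromosomes 1 to 19, X and Y were used. The 188 treatment and 148 control peaks elsewhere were left out. Gene spans and promoter windows came from RefSeq on GRCm38.p6. Of the windows, 59.99% held a control peak, and 6.05% after moving them by 100 kb. Summit coverage was the whole number of reads that fitted the fold enrichment and −log10 p-value to within 0.001, found for 99.977% of treatment and 99.994% of control peaks. Counting and recovery were checked on simulated data. Shares carry 95% Wilson intervals, ratios exact binomial ones and medians order-statistic ones, for counting error only. The intervals of ratios of peak numbers take the peaks of the libraries as independent, though most treatment peaks were shared. A count of 0 was taken to allow up to 3. Python 3.11.15, numpy 2.4.6, scipy 1.17.1 and pandas 2.3.3 were used.

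The members, their classes and the gene lists were chosen with earlier results of these data known, so no count over them is independent support. All 42 members were named. Sequences away from gene starts were not used here, and 1 marker gene is not reported here.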

Additional observations from a re-analysis of the deposited data

How the results depend on the processing

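Of 123 values recomputed under other settings, 85 stayed within the counting interval of the reported value, or within 1.5 times for counts of members. With lists of equal length the ratio of inhibitor peaks turned above 1, to 1.33, and to 1.08 without Inpp4b, and that of activators was 0.974. The control-only shares were then 15.03% for activators and 15.6% for inhibitors (17.0% without Inpp4b), and the treatment-only shares 12.8% and 35.6% (21.7%). Control medians were 596 and 571 bp (617 bp) and folds 8.32 and 9.39 (10.1). Then 17 members had fewer peaks in treatment and 15 more. This setting removes weak control peaks alone. Members with more peaks numbered 4 in gene spans alone, 1 with 50 kb on each side and 1 for −log10 q-values of 10 and above. Over all genes with a locus peak 5.94%, 6.22% and 4.35% had more in these settings. At the q-value limit the inhibitor medians were a fold of 6.29 in treatment, and 515 bp and 7.01 in control. With 50% reciprocal overlap the treatment-only shares were 9.40% for activators and 18.6% for inhibitors. With summits within 200 bp they were 9.40% and 20.7%, and 34.4% of inhibitor control peaks were control-only. Without Inpp4b the inhibitor control medians were 524 bp and a fold of 7.41. At a coverage of at least 100 reads, chosen after seeing the data, as was the equal-length setting without Inpp4b, the medians for activators were 705 bp and 8.34 in treatment and 596 bp and 8.32 in control, and for inhibitors 583 bp and 8.52, and 571 bp and 9.28. Leaving out single members moved the activator ratio between 0.717 and 0.760 and the inhibitor ratio between 0.806 and 0.843. No paired analysis was possible because each group has 1 library. Without replicates or read numbers, a difference of a few peaks at 1 locus is not resolved.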

Other observations

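The treatment summit lay within 50 bp of the control summit at 242 of 319 shared control peaks (75.9%), beside 80.6% over all loci, and at 71.5% for inhibitors and 80.4% for activators. Shared peaks were a little narrower in treatment, with a median width ratio of 0.935 at the 42 loci and 0.915 over all loci. Of the control peaks at the member loci 4 overlapped more than 1 treatment peak, and 2 treatment peaks overlapped more than 1 control peak. The last kb inside the 10 kb flanks held 6 treatment and 8 control peaks, and the first kb outside them 6 and 6.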
